A study of Sus scrofa with 3 samples.

Results

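The miR-26 family is a group of miRNAs made from similar hairpin precursors, here miR-26b and miR-26a. It was followed in small RNA libraries of 3 porcine skeletal muscles. Its members are the entries of the conserved miRNA table for which 26a or 26b is the most common number among the listed precursors of other mammals. This rule gave 4 of 152 entries, namely the 5p and the 3p miRNA of 1 miR-26b precursor position and of 1 miR-26a precursor position. Conserved miRNAs are those that the authors found by mapping reads to precursors of other mammals and then to the pig genome, while the known porcine and the candidate miRNAs were not analysed here. The values for miR-26a are thus those of 2 conserved entries, and they are not the level of all miR-26a in these muscles. The paper reports miR-26a as highly expressed in PL.

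The muscles were the peroneal longus (PL, red fibers), the psoas major (PMM, intermediate fibers), and the longissimus dorsi (LDM, white fibers). All were taken from 3 female Landrace pigs of 210 days, and the labels name no treatment. RNA of the pigs was pooled for the PL library, and pooling is not described for PMM and LDM. There was 1 library per muscle, so none of the differences has a replicate check and the tests compare libraries rather than muscles. The PMM and LDM reads came from an earlier study of the same pigs, so PL differs from both also in its sequencing batch, and these cannot be told apart. In whole muscle, fewer cells of a type and less RNA per cell cannot be told apart either. The raw reads came to 9.17 M (PL), 18.46 M (PMM), and 16.62 M (LDM), in units of 1e6 reads, and levels are reads per 1e6 raw reads (RPM). A single read was worth 0.109 (PL), 0.0542 (PMM), or 0.0602 (LDM) RPM. Exact 95% Poisson intervals of a level follow it in parentheses and cover counting error only.

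A miRNA precursor folds into a hairpin, from which Drosha and Dicer release a duplex of a 5p and a 3p strand. One strand is usually loaded into an Argonaute protein and guides it to mRNAs, mainly by pairing through the seed (bases 2 to 8), while the other strand is mostly degraded. In human, miR-26a and miR-26b are encoded in introns of CTDSP genes, which encode small phosphatases of the RNA polymerase II C-terminal domain. In mouse myoblasts miR-26a represses Ezh2, a histone methyltransferase that holds muscle genes silent, and in vascular endothelium it represses Smad1, a mediator of bone morphogenetic protein signaling.

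The sequences of the 4 members are shown because the family is defined by its 5p seed, and because the miR-26a-5p entry does not start where the mature miRNA does. Capitals mark bases 2 to 8 in the miR-26b strands, in miR-26a-3p, and in the 5p strand that the table marks within the miR-26a precursor. In the miR-26a-5p entry they mark the same 7 letters, TCAAGTA, at bases 7 to 13.
miR-26b-5p: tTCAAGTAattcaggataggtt
miR-26b-3p: cCTGTTCTccattacttggctc
miR-26a-5p entry: cctcgtTCAAGTAatccaggatag
miR-26a-5p as marked in its precursor: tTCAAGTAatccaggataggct
miR-26a-3p: cCTATTCTtggttacttgcacg

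The miR-26a-5p entry was 24 nt long. It started 5 bases upstream of the marked 22-nt strand and ended 3 bases before it, and they share 19 bases. Its own bases 2 to 8 read ctcgttc, so that the entry as listed does not carry the family seed. TCAAGTA stood at bases 2 to 8 in 1 of the 145 unique conserved sequences (miR-26b-5p), and bases 2 to 8 of miR-26b-3p, CTGTTCT, were also found in 1 of 145. Counting from 1 at the 5′ end, the marked miR-26a-5p differs from miR-26b-5p by C11T and C21T, which leaves 20 of 22 positions alike, and reads that end before base 21 differ at 1 position only. The 3p strands are less alike. miR-26a-3p differs from miR-26b-3p at 8 of 22 positions (A4G, T9C, G10C, G11A, C19G, A20C, C21T, and G22C), of which A4G lies within the seed. The T9C change also separates miR-26a-3p from its arm in the precursor listed with the miR-26a-5p entry, which there matches miR-26b-3p.

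The hairpins are shown to place both arms of each precursor, with the 5p and the 3p strand in capitals. They are the precursor sequences listed with the 3p entries.
miR-26b precursor: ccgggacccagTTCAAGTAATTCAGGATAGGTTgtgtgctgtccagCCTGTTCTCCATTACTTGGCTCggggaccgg
miR-26a precursor: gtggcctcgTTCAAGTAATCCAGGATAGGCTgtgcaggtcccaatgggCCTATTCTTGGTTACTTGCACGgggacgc

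Both are 77 nt long, with 13 nt between the arms in miR-26b and 17 nt in miR-26a. The sequences listed with the 5p entries are 85 nt (miR-26b) and 90 nt (miR-26a) long. Over the shared length they differ from those shown at 1 and 3 positions, respectively. The predicted minimum free energy of the hairpins shown was -40.2 kcal/mol for miR-26b and -37.3 kcal/mol for miR-26a. Per base, miR-26b was the 12th and miR-26a the 26th most stable of the 135 listed precursor sequences. In the predicted fold, 17 of the 22 bases of miR-26b-5p and 18 of the 22 bases of miR-26a-5p paired with the 3p arm. Thus the hairpins shown were similar in length and pairing. The reads of their entries, described next, differed, but those of miR-26a cover conserved entries only and do not measure the output of its hairpin.

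The miR-26b precursor was placed on an unplaced scaffold of Sscrofa10.2, on the plus strand from 56006 to 56081. The miR-26a precursor was placed on the minus strand of chromosome 12, at chr12:24885242-24885331. Whether these positions are exonic or intronic was not looked up, since an annotation of this build was not used here. In the RefSeq annotation of Sscrofa11.1 there was 1 miR-26 gene, MIR26A, and it lies within CTDSP2, a member of the phosphatase family that hosts miR-26 in human. MIR26A was not matched to either position above.

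Of the 4 conserved entries of the family, miR-26b-5p had the most reads in every library, and it was highest in PL. The libraries held 21348 (PL), 10208 (PMM), and 7833 (LDM) reads of it, although PL had the fewest raw reads. Its level was 2328 RPM (2297 to 2359) in PL, 553 RPM (542 to 564) in PMM, and 471 RPM (461 to 482) in LDM. PL stood far above the other libraries, which lay close to each other, and none of the 3 intervals overlapped. miR-26b-3p, the other strand of the duplex, had 41 reads in PL, 35 reads in PMM, and 53 reads in LDM. Its level was 4.47 RPM (3.21 to 6.07) in PL, 1.90 RPM (1.32 to 2.64) in PMM, and 3.19 RPM (2.39 to 4.17) in LDM. The order was thus PL, LDM, PMM for the 3p strand, with the interval of LDM overlapping those of both others. This order depended on the library total. Of the conserved reads, miR-26b-3p made up 0.174% in PL, 0.215% in PMM, and 0.425% in LDM, which puts PL last. The miR-26a-5p entry had 1 read in PL, 6 reads in PMM, and 0 reads in LDM, and miR-26a-3p had 0, 2, and 1 reads, respectively. A count of 0 was taken to allow up to 3 reads, which is 0.327 RPM in PL and 0.181 RPM in LDM. The miR-26a entries were therefore at or near the limit of detection, and no order of the muscles can be read from them.

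**Figure D1:**
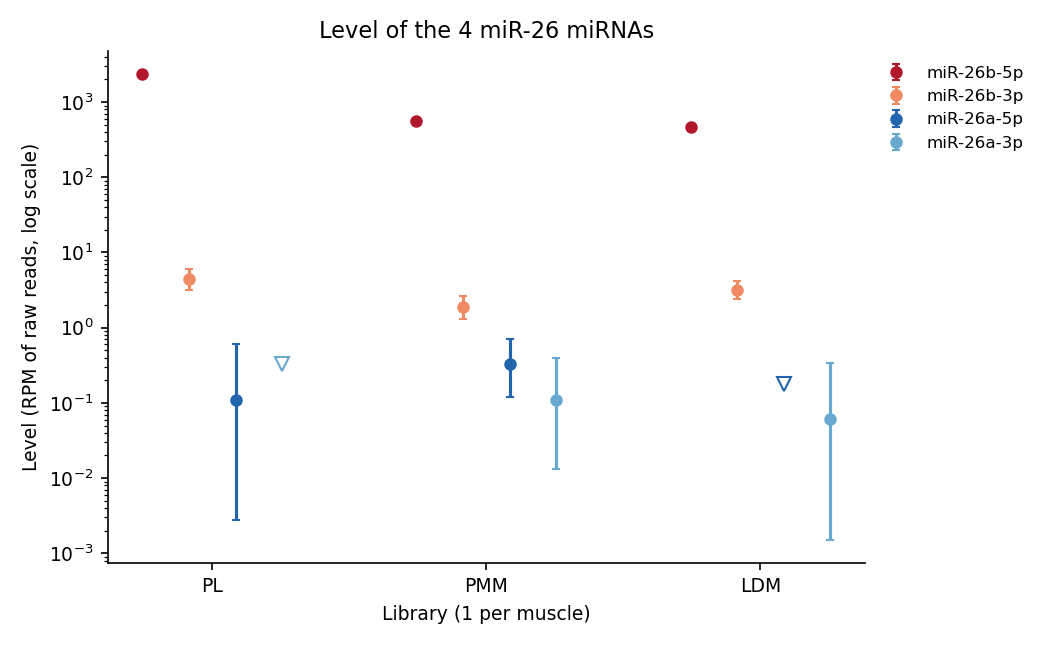
Level of the 4 miR-26 miRNAs (RPM of raw reads, log scale) in the 1 library of each muscle. Points are levels with exact 95% Poisson intervals, and open triangles mark the 3 reads that a count of 0 allows. miR-26b-5p lies at 2328, 553, and 471 RPM, miR-26b-3p between 1.90 and 4.47 RPM, and both miR-26a entries at or below 0.325 RPM.

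The family made up a larger share of the conserved reads in PL than in the other libraries. The family held 21390 of 23583 conserved reads in PL (90.7%), 10251 of 16286 in PMM (62.9%), and 7887 of 12463 in LDM (63.3%). In PL, miR-26b-5p had 9.73 times the reads of the rest of the table, that is, of all conserved reads outside the family, and in PMM and LDM it had 1.69 and 1.71 times as many. The sum of the rest of the table did not follow miR-26b. It came to 239 RPM (229 to 249) in PL, 327 RPM (319 to 335) in PMM, and 275 RPM (267 to 283) in LDM, and was therefore lowest in PL. Between PL and LDM this rested on 1 entry, miR-1-3p, and without it the rest came to 234 RPM (225 to 244) in PL against 279 RPM (271 to 286) in PMM and 196 RPM (189 to 203) in LDM.

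miR-26b-5p ranked first in each library among the 108 unique conserved miRNAs with at least 3 reads in all, a minimum that every member passed. In PL and PMM the next was miR-6529-5p, with 300 and 1112 reads. miR-26b-5p exceeded it 71.2-fold (63.5 to 80.0) in PL and 9.18-fold (8.63 to 9.77) in PMM. In LDM the next was an entry for miR-1-3p, a muscle miRNA that promotes myoblast differentiation, with 1318 reads, and the ratio was 5.94 (5.61 to 6.30). The lead of miR-26b-5p was therefore greatest in PL and least in LDM. miR-26b-3p ranked 17th in PL, 27th in PMM, and 17th in LDM, so the minor strand still exceeded most conserved miRNAs. The miR-26a-5p entry ranked 63rd in PL and 59th in PMM.

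**Figure D2:**
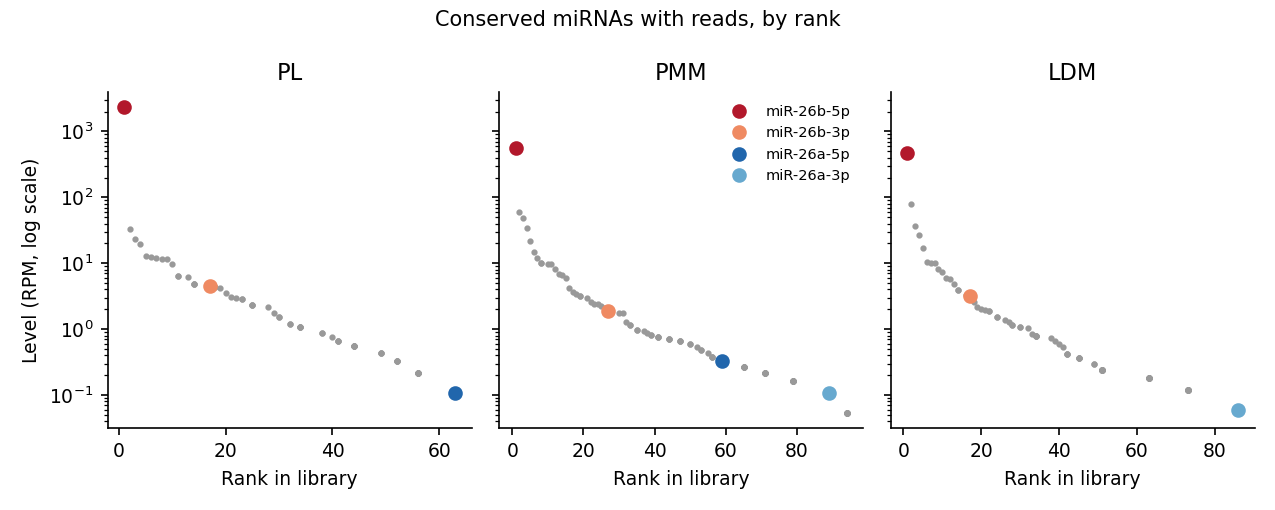
Level (RPM, log scale) of the unique conserved miRNAs with reads against their rank in each library, where miRNAs with equal reads share a rank. The miR-26 members are colored and the others are gray. miR-26b-5p ranks first in every panel and lies 71.2-fold above the next miRNA in PL, 9.18-fold in PMM, and 5.94-fold in LDM.

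To compare red with intermediate muscle, each miRNA was tested between PL and PMM. A miRNA was called where each of 3 tests (the Audic-Claverie test for digital counts, the chi-squared 2 × 2 test, and Fisher's exact test) gave a Bonferroni-adjusted p below 0.001 over the 108 miRNAs. Between these libraries 23 of 108 miRNAs (21.3%) were called, 12 higher and 11 lower in PL, and 39 (36.1%) were over 1.5-fold higher in PL. Of the 4 family members, miR-26b-5p was called. It was 4.21-fold higher in PL (95% interval 4.11 to 4.31). This was the 3rd highest fold among the 24 miRNAs with at least 100 reads in all, and the 15th among the 108. miR-26b-3p stood at 2.36-fold (1.47 to 3.81) and was not called. The miR-26a-5p entry, with 1 read against 6, had a PL over PMM ratio of 0.336 (0.00729 to 2.77) and was not called, and miR-26a-3p was at or below the detection limit in both. On the log2 scale, the fold of miR-26b-5p lay 2.29 above the median of the 108 miRNAs, which was -0.21.

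In the comparison of red with white muscle, 25 of 108 miRNAs (23.1%) were called between PL and LDM, 16 higher and 9 lower in PL, and 47 (43.5%) were over 1.5-fold higher in PL. miR-26b-5p was again the called member, at 4.94-fold higher in PL (4.81 to 5.07), the 5th highest fold among the 24 and the 23rd among the 108. miR-26b-3p stood at 1.40-fold (0.909 to 2.15) and was not called. The log2 fold of miR-26b-5p lay 2.15 above the median of the 108 miRNAs (0.16), and that of miR-26b-3p lay 0.33 above it. miR-26b-5p was therefore enriched in PL, meaning called against both other libraries and over 1.5-fold higher than each. Both folds have PL in common. With the summed conserved reads in place of the raw reads as library total, the fold of miR-26b-5p was 1.44 against PMM and 1.44 against LDM and this enrichment was lost. miR-26b-5p is itself most of that total, and with the miR-26 family left out of it the folds were 5.76 and 5.69.

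In the comparison of intermediate with white muscle, 13 of 108 miRNAs (12.0%) were called between PMM and LDM, 9 higher and 4 lower in PMM, and 55 (50.9%) were over 1.5-fold higher in PMM. miR-26b-5p was called at 1.17-fold higher in PMM (1.14 to 1.21), which is under the 1.5-fold threshold. It ranked 17th of the 24 miRNAs with at least 100 reads and 64th of the 108. Its log2 fold of 0.23 was below the median of the 108 miRNAs (0.59), and its direction depended on the library total. It was -0.0039 with the summed conserved reads, -0.017 with these less the miR-26 family, -0.10 under size factors from the median of ratios, and -0.26 under the trimmed mean of M values (TMM), and the latter pair were called lower in PMM. No direction can therefore be given for miR-26b-5p between PMM and LDM. miR-26b-3p was not called, at 0.595-fold in PMM over LDM (0.377 to 0.928), and this value was under 1 with each of these library totals. The miR-26a-5p entry, with 6 reads in PMM against 0 in LDM, was not called.

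As a sum, the family differed more between PL and the other libraries than the sum of the rest of the table did. Single miRNAs could differ more, since 14 of the 108 had a higher PL over PMM fold than miR-26b-5p. For PL over LDM, 22 of the 108 did. The summed level of the family was 4.20-fold higher in PL than in PMM, while the rest of the table was 0.732-fold (0.696 to 0.768), so that the family gained 5.74-fold on the rest. Against LDM the family stood at 4.92-fold and the rest at 0.869-fold (0.825 to 0.914), a gain of 5.66-fold, while the rest without miR-1-3p stood at 1.20-fold (1.13 to 1.26), still below the fold of the family. Between PMM and LDM, the family (1.17-fold) and the rest (1.19-fold, 1.14 to 1.23) differed from 1 by a similar factor, and the family changed 0.986-fold relative to the rest. These ratios to the rest need no library total.

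**Figure D3:**
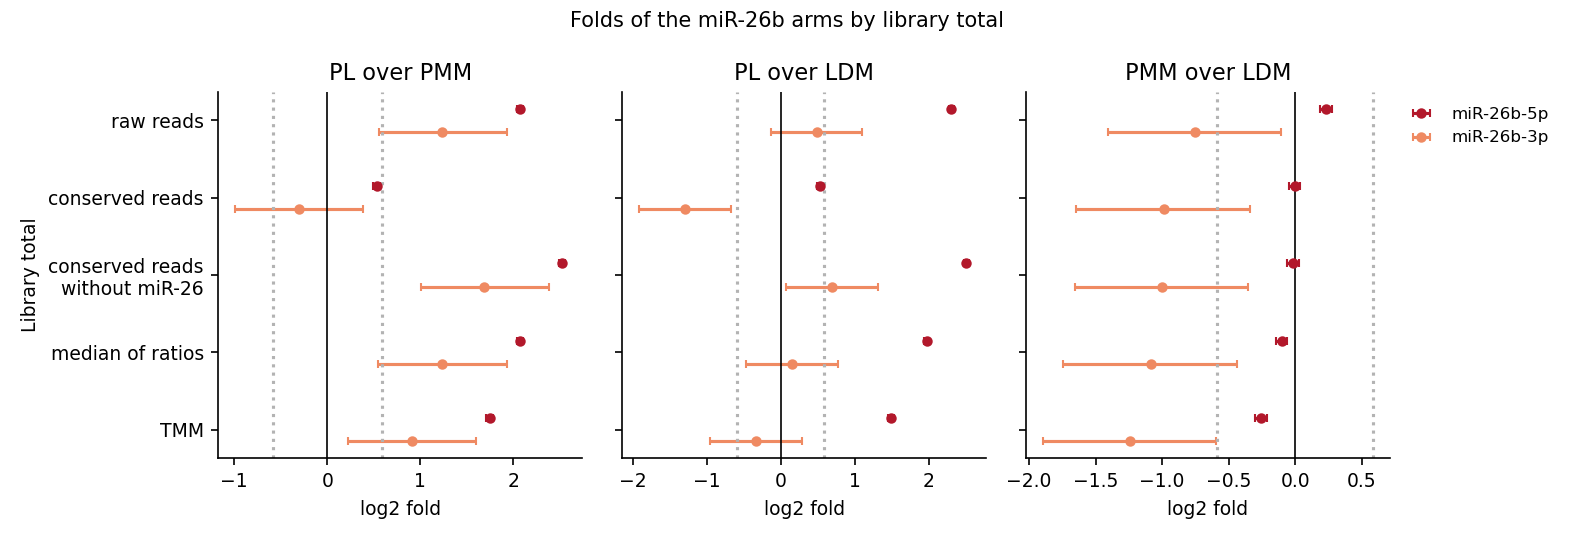
Log2 folds of miR-26b-5p and miR-26b-3p for the 3 pairs of libraries (panels), with raw reads and 4 other library totals on the vertical axis. Bars are exact 95% intervals for counting error, dotted lines mark 1.5-fold either way, and the solid line marks no difference. miR-26b-5p is above 0 with every total when PL is compared (2.07 and 2.30 with raw reads), and between PMM and LDM it runs from 0.23 to -0.26.

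The use of the arms of 1 precursor was compared next, since a ratio of arms within a library does not depend on the library total. Of the miR-26b reads, the 3p strand made up 0.192% (0.138 to 0.260) in PL, 0.342% (0.238 to 0.475) in PMM, and 0.672% (0.504 to 0.878) in LDM, with Clopper-Pearson 95% intervals. For each read of miR-26b-3p there were thus 521 reads of miR-26b-5p in PL, 292 reads in PMM, and 148 reads in LDM. The 3p share was lowest in PL and highest in LDM, and the intervals of PL and LDM did not overlap. The 5p to 3p ratio was 3.52-fold higher in PL than in LDM (2.30 to 5.44, adjusted p = 1.9e-08, Fisher's exact test with Benjamini-Hochberg adjustment over 57 tests at 19 precursor positions). It was 1.79-fold higher in PL than in PMM (1.10 to 2.88, exact adjusted p = 0.0325) and 1.97-fold higher in PMM than in LDM (1.26 to 3.12, exact adjusted p = 0.0048). With Bonferroni adjustment, the differences between PL and PMM (exact p = 0.781) and between PMM and LDM (exact p = 0.0967) were no longer below 0.05. Such differences were common in the table. At an adjusted p below 0.05, 10 of 19 positions (52.6%) differed between PL and PMM, 12 of 19 (63.2%) between PL and LDM, and 4 of 19 (21.1%) between PMM and LDM. The 10 include miR-5105, whose listed 3p sequence lies within its 5p sequence, so that its entries are not separate arms. Of the 19 positions, 17 had reads in both PL and LDM and 18 in each other pair, so the remainder could not be called there. Between PL and LDM, 7 of the 12 called positions, miR-26b among them, had relatively more 5p in PL and 5 relatively more 3p. The called positions thus did not share a direction.

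**Figure D4:**
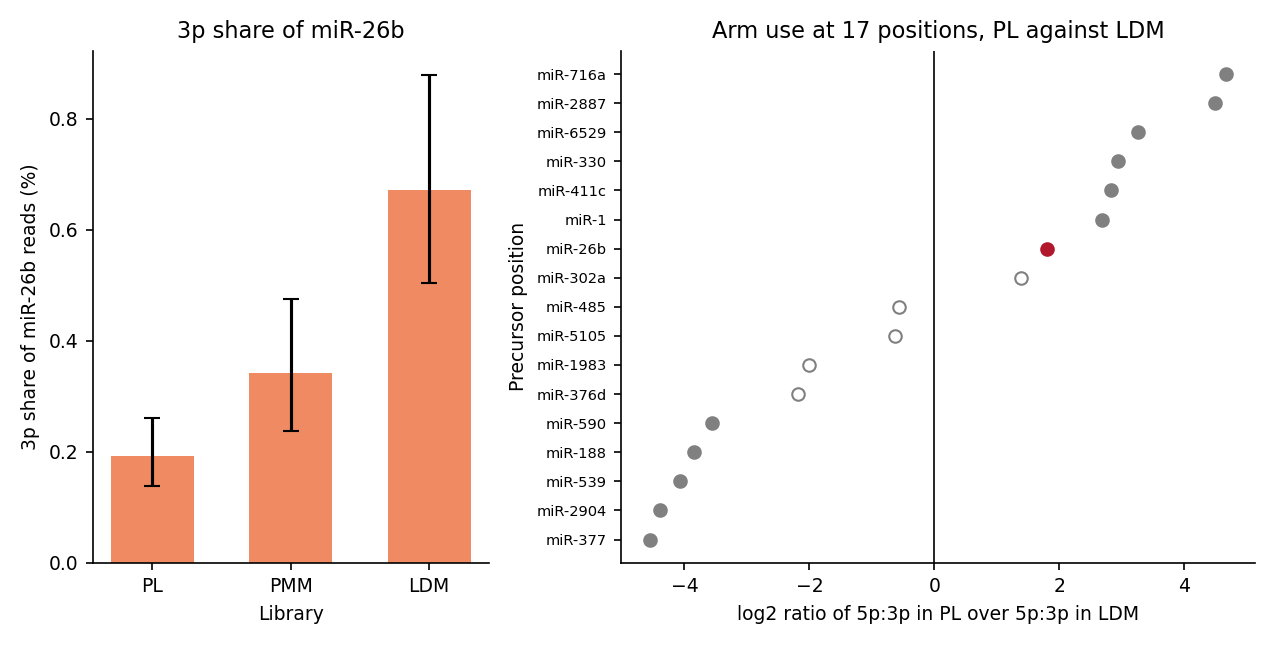
Left, the 3p share of all miR-26b reads (%) in each library with Clopper-Pearson 95% intervals, rising from 0.192% in PL to 0.672% in LDM. Right, the log2 ratio of 5p:3p in PL over 5p:3p in LDM at the 17 tested precursor positions with reads in both libraries, after 0.5 reads were added to each count, with filled points for an adjusted p below 0.05 and miR-26b in red.

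The arms of miR-26b were among the most one-sided of the table. Summed over the libraries, miR-26b had 99.7% of its reads on the major arm, the highest share among the 17 positions with both arms listed and at least 100 reads, followed by miR-660 with 99.0%. By library it ranked 1st in PMM, but 2nd in PL, where miR-660 had 213 reads on one arm and 0 on the other, and 5th in LDM, where miR-716a had 445 reads against 2 and 3 positions with 31 or fewer reads had 0 on the minor arm. The median of the 17 was 89.7% and the lowest 56.3%. The lowest was miR-5105, whose listed 3p sequence lies within its 5p sequence, so that its share does not compare separate arms. The major arm was 5p at 8 of the 17 positions, miR-26b among them. The miR-26a position had 8 reads on both arms in PMM, 6 of them on the 5p arm, and 1 read in each of the other libraries, which is too few for a comparison of arms. Its 5p reads were counted for a sequence displaced from the marked 5p strand, so they also do not measure the same product as miR-26b-5p does.

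The miRNAs whose levels followed the same course as miR-26b-5p were sought by Euclidean distance between log2 levels centered on their mean over the 3 libraries, among the 23 other miRNAs with at least 100 reads. With 3 libraries this is a description only. The library total cancels in these distances, since it shifts the levels of every miRNA in a library alike. The nearest were miR-5105-3p (distance 0.411), miR-5105-5p (0.859), miR-411c-3p (0.916), miR-590-3p (1.20), and miR-26b-3p (1.28), against a median distance of 3.06. In the order PL, PMM, LDM, the level of miR-5105-3p was 12.3, 4.23, and 2.59 RPM, and that of miR-411c-3p was 11.7, 3.14, and 1.14 RPM. In RPM of raw reads, both thus shared the order PL, PMM, LDM with miR-26b-5p at far lower levels. For miR-26b-5p, however, the order of PMM and LDM depended on the library total. The listed miR-5105-3p lies within the miR-5105-5p sequence, so these entries are not independent. Both miR-5105 entries also belong to the group of minus-strand chromosome 6 entries that was left out in 1 setting for the family share. miR-26b-3p was thus the least near of the 5, and it was the one in which LDM lay above PMM.

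Markers of the cell types that whole muscle can hold were read from the same table. Of 8 muscle miRNAs, miR-1 and miR-208a, a miRNA encoded in a cardiac myosin gene, had entries, and their summed level was 81.4 RPM in LDM, 51.1 RPM in PMM, and 18.8 RPM in PL. The sum was therefore lowest in PL, the library in which miR-26b-5p was highest. Within it, 1 entry (miR-208a-3p) was called higher and 1 (miR-1-3p) lower in PL against each of the other libraries, and miR-208a-3p had 118 reads in PL against 13 in PMM and 1 in LDM. No endothelial (0 of 1), vascular smooth muscle (0 of 2), red blood cell (0 of 2), or adipose (0 of 1) marker had an entry among the conserved miRNAs used here. Of 4 immune markers 1 had entries, miR-223, a myeloid miRNA, at 2.28 RPM in PMM, 2.23 RPM in LDM, and 1.64 RPM in PL. Of 7 epithelial markers 3 had entries, with a summed level of 4.23 RPM in PMM, 1.93 RPM in LDM, and 0.981 RPM in PL. Of 5 neural markers 2 had entries, with 189 reads in PMM, 21 in LDM, and 0 in PL. None of these sums was highest in PL, but they cover the conserved miRNAs only, and their part in the levels of miR-26b was not tested. Of the listed markers without an entry, the paper reports miR-126, miR-128, miR-208b, miR-486, and miR-499 as enriched in PL. It reports miR-378 as enriched in PMM. Of 21 other miRNAs tied to myogenesis or angiogenesis, miR-1 alone had entries among the conserved miRNAs. Of the others, the paper reports several as higher in PL, such as miR-10b, miR-27b, miR-100, miR-125b, and miR-199a. It reports miR-101 and miR-148a as enriched in PMM. miR-1-3p was called lower in PL against both others, with 79.3 RPM in LDM, 48.3 RPM in PMM, and 4.80 RPM in PL. In RPM of raw reads, the order of the muscles for this conserved entry was thus the reverse of that of miR-26b-5p. Between PMM and LDM, the order of miR-26b-5p depended on the library total. The level of this miR-1-3p entry is not that of all miR-1.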

How the data were processed

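Small RNA of PL, PMM, and LDM was compared with 1 library each. The authors filtered the reads for adapter, length, and junk and mapped the rest by BLAST to mammalian precursors of miRBase 19.0 and to Sscrofa10.2. The deposited values are whole read counts of each conserved miRNA in each library, not normalized. The column heading speaks of the most abundant sequences, so a value may count the leading read sequence of a miRNA and not its length variants. A mark stands for no read and was read as 0 (118 of 456 cells). Because the table covers only part of a library, levels were set on raw reads, and not on mappable reads as in the study.

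Entries of 1 mature sequence were merged, and the 108 unique miRNAs with 3 or more reads were tested by the 3 tests of the study (two-sided), on simulated counts first. Folds have exact binomial intervals and arms with at least 10 reads each were compared by Fisher's exact test. Named miRNAs are the family, the leading miRNAs that a result turns on, the 5 most like miR-26b-5p, and measured members of marker and pathway lists. The members and lists were chosen with earlier results of these data known. Alternatives were other library totals, read minimums, tests, adjustments, unmerged entries, denominators, and distances, and, chosen after seeing the data, the sum outside the family without miR-1-3p. Hairpins were folded with ViennaRNA 2.7.2. The software was scipy 1.17.1, numpy 2.4.6, matplotlib 3.10.9, and pandas 2.3.3 under Python 3.11.15.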

Additional observations from a re-analysis of the deposited data

How the results depend on the processing

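Of 109 values under 15 other settings, 88 stayed the same. In these, folds and arm ratios kept direction and call, counts stayed within 1.5 times, and shares moved less than their counting error. Read minimums, tests, adjustments, and merging could alter only the call of a fold or arm ratio. The 88 include 8 for the miR-26a-5p entry, which had too few reads. They also include the PL folds of miR-26b-5p with the summed conserved reads, which fell below 1.5-fold, so the enrichment in PL was lost. The log2 fold of miR-26b-5p stayed above 0 and called in PL over PMM (0.53 to 2.52) and in PL over LDM (0.53 to 2.51), and the PMM over LDM fold turned to -0.0039, -0.017, -0.10, and -0.26 with the summed conserved reads, these less the miR-26 family, median-of-ratios size factors, and TMM. For miR-26b-3p, the PL over PMM fold (1.24) was -0.31 with the summed conserved reads, while it was called at 1.69 without the miR-26 family in the total and at 1.24 with Benjamini-Hochberg adjustment. Its PL over LDM fold (0.49) turned to -1.29 under the summed conserved reads and to -0.33 under TMM. The summed conserved reads hold miR-26b-5p as their largest part, and otherwise the cause was not tested. Without miR-1-3p (added after seeing the data), the log2 fold of the conserved reads outside miR-26 turned from -0.20 to 0.26 in PL over LDM. It was -0.25 in PL over PMM and 0.51 in PMM over LDM (before, -0.45 and 0.25). The family share was 92.8% in PL, 66.8% in PMM, and 67.5% in LDM without a group of minus-strand chromosome 6 entries, and 0.233%, 0.0555%, and 0.0475% of raw reads. The 5p to 3p ratio of miR-26b was called between PL and LDM under both alternatives (log2 1.82). With Bonferroni adjustment it was not called between PL and PMM (log2 0.84) or PMM and LDM (log2 0.98). Between PL and PMM it was also not called with 1 read per arm (135 tests).

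The 23, 25, and 13 called miRNAs became 22 to 32, 21 to 28, and 9 to 16. With the summed conserved reads 3 were higher and 27 lower in PL than in PMM, 6 higher and 22 lower in PL than in LDM, and 6 higher and 4 lower in PMM than in LDM, as the medians moved to -1.76, -1.62, and 0.35. Without the miR-26 family in the total the splits were 18 to 7, 18 to 8, and 6 to 4 (medians 0.24, 0.36, and 0.34), with median-of-ratios size factors 12 to 11, 14 to 10, and 6 to 5 (-0.21, -0.18, and 0.25), and with TMM 10 to 12, 9 to 12, and 4 to 5 (-0.54, -0.66, and 0.098). The 5 miRNAs nearest to miR-26b-5p were the same with the other pseudocount, and another library total could not change them. With 1 library per muscle, no paired analysis was possible and no library could be left out. The miR-26a entries had at most 6 reads per library, too few to show a difference, and the cause was not tested.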
